A study of Mus musculus with 21 samples.

Results

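The 10 genes described here encode S100 calcium-binding proteins (S100a1, S100a4, S100a6, S100a8, S100a9, S100a10, S100a11, S100a13, S100a14 and S100a16), out of 22180 genes measured. They are a named list chosen by the tamoxifen values of S100a6 and S100a8, which were higher in cells of tamoxifen-injected mice, with relatives added, so differences between tamoxifen and control arrays are given below as a description without a test. Each gene had 1 probe set (a group of probes for 1 transcript) that names it alone. No filter on level was set, so all 10 entered every fit. As a guide to background, the 95th percentile of all values of 1105 olfactory receptor genes was 4.25 on the log2 scale. On that scale 8 of the members had a mean above the guide in 5 or 6 of the 6 groups, whereas S100a8 and S100a9 exceeded it in 1 group.

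The cells came from the corpus of the mouse stomach and were sorted by flow cytometry on the green fluorescence of Lgr5GFP, a reporter of the Lgr5 gene, into high, low and negative populations. Tamoxifen mice had received 0.27 mg of the drug per g of body weight, and their cells were isolated 24 hours later (n = 4 arrays per population), while control mice had not been injected (n = 3 arrays per population). Strain, age, sex and any further allele of the mice are not given in the sources used here, and no group received the vehicle alone, so effects of drug, injection and sorting run cannot be told apart. The study's design text calls the arrays technical replicates from separate sorts, and nothing says that they came from separate animals, so p-values measure only the spread between these 21 arrays.

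S100 proteins are small calcium sensors of the EF-hand type that mostly work as dimers. On binding calcium they expose a surface that grips partner proteins such as annexins, myosin and the scaffold Ahnak, and several are also released from stressed or dying cells and act on receptors such as Tlr4 and Ager. In the stomach and other epithelia S100 genes are known for their induction during injury and inflammation. S100a8 and S100a9 encode the subunits of calprotectin, a metal-binding antimicrobial complex abundant in neutrophils and also made by inflamed epithelium.

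Promoter sequences are shown for S100a6, S100a11, S100a8 and S100a9, the 4 members that the account below turns on most, in RefSeq coordinates of GRCm38.p6. Each is the 250 bases before the annotated start, written 5′ to 3′ on the gene's strand, with motif matches in capitals.
S100a6 (chr3:90612644-90612893, plus strand): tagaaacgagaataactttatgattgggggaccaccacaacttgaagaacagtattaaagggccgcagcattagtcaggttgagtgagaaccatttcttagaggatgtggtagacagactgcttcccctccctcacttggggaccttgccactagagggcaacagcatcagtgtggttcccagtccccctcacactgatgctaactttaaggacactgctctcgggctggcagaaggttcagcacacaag
S100a11 (chr3:93520246-93520495, plus strand): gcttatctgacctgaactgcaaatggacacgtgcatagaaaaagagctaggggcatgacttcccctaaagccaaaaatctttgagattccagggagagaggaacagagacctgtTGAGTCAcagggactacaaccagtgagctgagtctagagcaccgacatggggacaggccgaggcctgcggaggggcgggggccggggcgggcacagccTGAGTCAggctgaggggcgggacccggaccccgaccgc
S100a8 (chr3:90668821-90669070, plus strand): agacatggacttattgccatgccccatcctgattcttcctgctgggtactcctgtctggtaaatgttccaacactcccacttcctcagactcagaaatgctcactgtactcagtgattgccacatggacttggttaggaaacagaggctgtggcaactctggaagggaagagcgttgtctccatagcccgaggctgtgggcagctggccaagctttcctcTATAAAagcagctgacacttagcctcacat
S100a9 (chr3:90695722-90695971, minus strand): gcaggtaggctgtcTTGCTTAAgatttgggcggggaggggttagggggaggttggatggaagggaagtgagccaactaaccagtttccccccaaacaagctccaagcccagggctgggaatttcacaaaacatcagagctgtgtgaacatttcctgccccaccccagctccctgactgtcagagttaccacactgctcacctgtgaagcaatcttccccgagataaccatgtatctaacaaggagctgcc
The capitals mark 2 matches to the AP-1 motif TGANTCA in S100a11, at 136 and 38 bases before the start, 1 match to the TATA box letters TATAAA in S100a8, at 30 bases before the start, and 1 match to the C/EBP motif TTGCNNAA in S100a9, at 236 bases before the start. No match to any searched motif lies in the S100a6 stretch. Both strands were searched over 300 bases (250 before and 50 after the start) of 32851 RefSeq promoters, where 8 of the 10 members had an entry and S100a10 and S100a14 had none. AP-1 letters were present in S100a11 and S100a16, 2 of the 8, against 7.81% of all promoters. C/EBP letters were present in S100a9, 1 of the 8, against 10.8% of all promoters. TATA box letters were present in S100a4 and S100a8 within the 250 bases before the start, 2 of the 8, against 12.4% of all promoters. Over the full 300 bases they were also present in S100a9, which made 3 of the 8, against 13.6%, but that match is not within the stretch before the start and so is not in the printed sequence. The antioxidant response element TGACNNNGC was present in S100a16, 1 of the 8, against 12.4%, whereas the NF-kB motif (1.63% of all promoters) and the full palindromic estrogen response element (0.07%) were in 0 of the 8. A match describes these letters and says nothing of binding.

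The arrays carried the identity their labels give: mean log2 Lgr5 was 8.43, 6.70 and 4.59 in high, low and negative cells of tamoxifen mice and 8.79, 7.56 and 4.41 in those of control mice. Lgr5 drives the sorted reporter, so this checks the gates only. Pgc, the pepsinogen gene of chief cells, was high on every array. Genes of other cell types were present as well. A surface pit cell list (7 genes) had mean log2 levels of 10.23 to 10.65 in tamoxifen negative cells and 10.66 to 10.75 in control negative cells, against 6.11 to 8.08 in tamoxifen high and 6.89 to 8.05 in control high cells. A tuft cell list (9 genes) ran the other way, with 7.53 to 10.15 in tamoxifen high and 10.11 to 10.82 in control high cells, against 5.71 to 6.66 in tamoxifen negative and 6.63 to 7.78 in control negative cells. In low cells the tuft list had 5.31 to 6.88 on tamoxifen and 8.33 to 9.62 on control arrays, with 8 of 9 genes lower by the fit's threshold. A parietal cell list (10 genes) had 6.56 to 7.26 on tamoxifen low and 8.10 to 8.77 on control low arrays, with 7 of 10 lower. In each of high and negative cells 4 of 10 were lower. A mucous neck cell list (6 genes) had 7.78 to 8.60 on tamoxifen negative and 9.69 to 9.97 on control negative arrays. Of its genes 3 of 6 were lower in negative cells, 2 of 6 in low cells and 0 of 6 in high cells. The pit cell list had 8.33 to 9.21 on tamoxifen low and 7.40 to 8.27 on control low arrays, with 2 of 7 higher. An endocrine cell list (10 genes) had 5.48 to 7.72 on tamoxifen low and 7.15 to 8.74 on control low arrays, with 3 of 10 lower. A chief cell list (8 genes) had 7.41 to 7.54 on tamoxifen low and 8.07 to 8.37 on control low arrays, with 2 of 8 lower. Over all genes 2.98% were lower and 5.35% higher in low cells. In high and negative cells 1.04% and 0.703% of all genes were lower. The shifts in low cells stand beside the S100a4, S100a6 and S100a11 differences given below for the same arrays. Those in negative cells stand beside the S100a8 and S100a9 differences. In bulk samples of this kind, more cells of a type and more RNA of a gene per cell cannot be told apart, and the part of these lists in the results below was not tested.

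**Figure D1:**
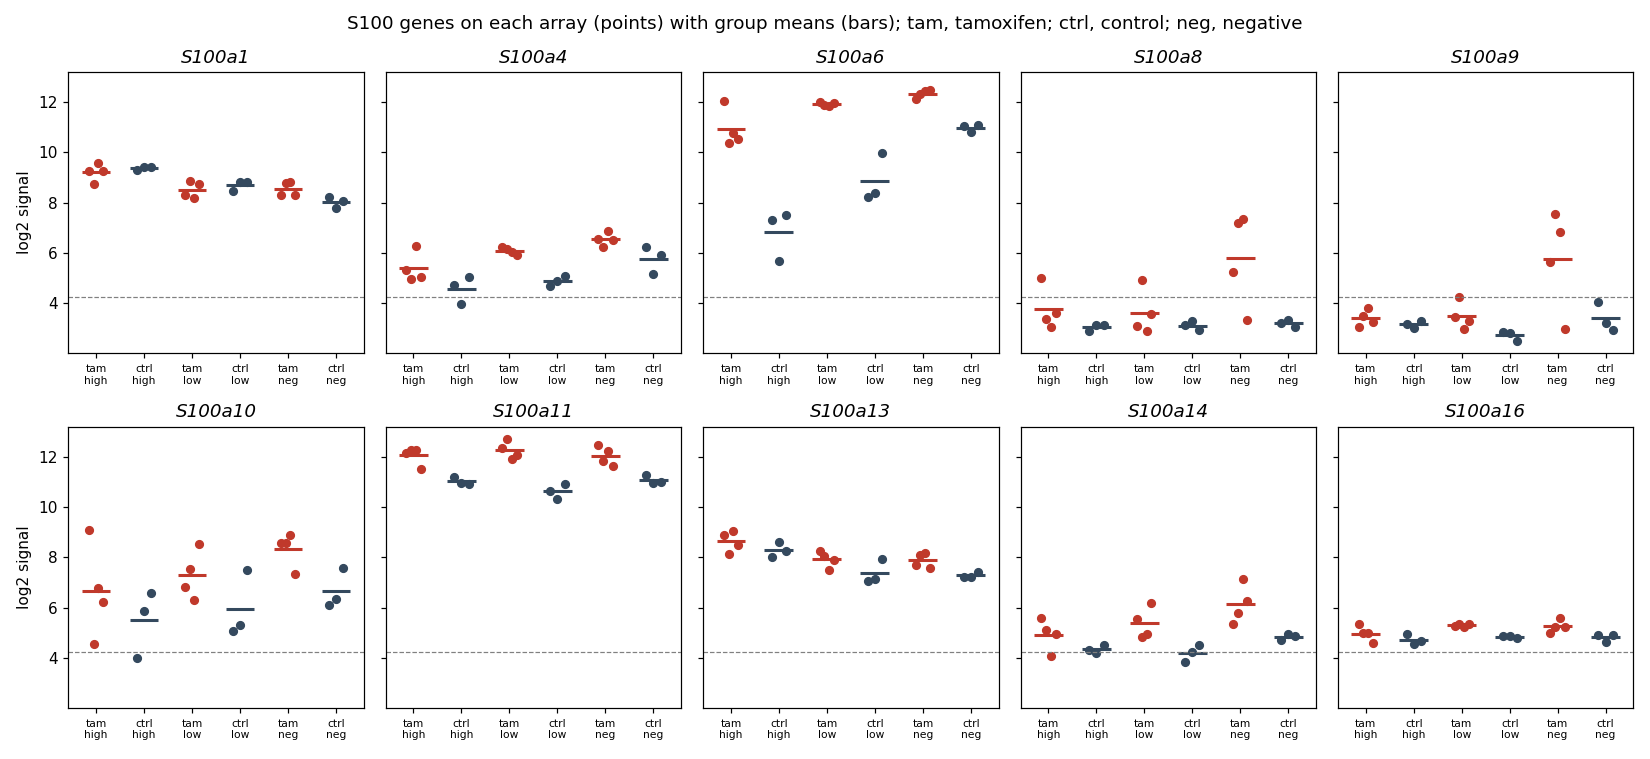
Log2 signal (vertical axis) of each of the 10 S100 genes on every array (points) with the group mean (bar), in tamoxifen (red) and control (dark) high, low and negative cells. The dashed line is the guide level of background, 4.25. S100a6 spans 5.67 to 12.48, and S100a8 and S100a9 stand clear of the line mainly on 3 of the 4 tamoxifen negative arrays.

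S100a6 encodes calcyclin, a dimer that binds annexins and the ubiquitin ligase adaptor Cacybp, and it had the widest range of the members, with group means that differed by 5.51 on the log2 scale. Its log2 levels in high cells were 12.05, 10.38, 10.79 and 10.54 on the tamoxifen arrays and 7.29, 5.67 and 7.53 on the control arrays. In low cells they were 11.99, 11.89, 11.84 and 11.99 on the tamoxifen arrays and 8.23, 8.37 and 9.96 on the control arrays. In negative cells they were 12.11, 12.34, 12.43 and 12.48 on the tamoxifen arrays and 11.07, 10.82 and 11.09 on the control arrays. Every tamoxifen array of a population lay above every control array of that population. The difference was 4.11 ± 0.42 (SE) in high cells, or 17.3-fold, 3.07 ± 0.42 in low cells, or 8.41-fold, and 1.35 ± 0.42 in negative cells, or 2.55-fold. These SE rest on 1 estimate of spread shared by all 6 groups. The negative arrays alone spread less (SD 0.16 on tamoxifen and 0.15 on control arrays) than the high arrays (0.76 and 1.01). The tamoxifen difference in high cells exceeded that in negative cells by 2.76 ± 0.59 on the log2 scale. The difference in low cells exceeded that in negative cells by 1.72 ± 0.59. Ordered downward, the 6 group means were 12.34 in tamoxifen negative, 11.93 in tamoxifen low, 10.99 in control negative, 10.94 in tamoxifen high, 8.85 in control low and 6.83 in control high cells. Among neighbours in this order, tamoxifen high and control negative cells differed by less than the spread of the tamoxifen high arrays (SD 0.76).

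S100a6 also differed between populations. In tamoxifen mice, given as a description, high minus negative was -1.40, low minus negative -0.42 and high minus low -0.98 on the log2 scale. In control mice the steps were wider. They are also a description, since the control arrays were part of the tamoxifen differences by which S100a6 was chosen. Mean log2 levels in control mice were 6.83 ± 1.01 in high cells, 8.85 ± 0.96 in low cells and 10.99 ± 0.15 in negative cells (SD, n = 3 each). High minus negative was -4.16 ± 0.45 (SE), a level 17.9-fold lower in high cells, low minus negative was -2.14 ± 0.45, and high minus low was -2.02 ± 0.45. Without control high replicate 2 high minus low was -1.44, and without control low replicate 3 it was -1.47.

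S100a8 and S100a9, the calprotectin subunits, were at or near background in most groups and stood out in tamoxifen negative cells. S100a8 had log2 levels of 5.23, 7.18, 7.37 and 3.33 on the tamoxifen negative arrays, against 3.21, 3.35 and 3.03 on the control negative arrays. S100a9 had 5.63, 7.57, 6.85 and 2.98 on the tamoxifen negative arrays, against 4.03, 3.19 and 2.94 on the control negative arrays. Both genes were high on tamoxifen negative replicates 1, 2 and 3 and at the control level on replicate 4, so the groups overlapped. The mean difference was 2.58 ± 0.68 for S100a8 and 2.37 ± 0.65 for S100a9 (log2, SE). These SE rest on 1 estimate of spread shared by all 6 groups. The tamoxifen negative arrays alone spread more widely (SD 1.90 for S100a8 and 2.01 for S100a9) than the control negative arrays (0.16 and 0.57). Leaving out 1 array moved the S100a8 difference between 2.05 (without tamoxifen negative replicate 3) and 3.40 (without replicate 4). For S100a9 it moved between 1.76 (without replicate 2) and 3.29 (without replicate 4). Because the control means lay under the guide level, the folds are bounds: S100a8 was at least 2.89-fold and S100a9 at least 2.85-fold higher, taking the tamoxifen mean over the guide.

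Elsewhere S100a8 passed the guide on 2 arrays. In high cells its log2 levels were 5.00, 3.36, 3.04 and 3.59 on the tamoxifen arrays and 2.87, 3.13 and 3.14 on the control arrays, a mean difference of 0.70 that was 0.28 without tamoxifen high replicate 1. In low cells its levels were 3.10, 4.91, 2.88 and 3.57 on the tamoxifen arrays and 3.12, 3.27 and 2.93 on the control arrays, a mean difference of 0.51 that was 0.08 without tamoxifen low replicate 2. Each difference therefore came mostly from 1 array. Replicate numbers do not match across the populations of tamoxifen mice. By the number in the titles, high and low replicate 1 go with negative replicate 2. High and low replicate 2 go with negative replicate 3, and high and low replicate 3 with negative replicate 4. The labels do not say what that number marks. S100a9 stayed between 2.99 and 4.24 on tamoxifen high and low arrays and between 2.51 and 3.30 on control high and low arrays, all under the guide. Between populations of tamoxifen mice, where S100a9 was tested, high cells were lower than negative cells (-2.36 ± 0.60, limma adjusted p = 0.0132), although the groups overlapped because of negative replicate 4. S100a9 varied with S100a8 over the 21 arrays (r = 0.90), so its p-values here are not independent of the choice of S100a8. The high-cell mean, 3.39, lay under the guide, so the fold is a bound, at least 2.85-fold lower in high cells. That call was lost without tamoxifen negative replicate 2 (limma adjusted p = 0.0532) or negative replicate 3 (0.0639). It was also lost in a fit of only the high and negative groups (limma adjusted p = 0.140). Low minus negative was -2.26 ± 0.60 for S100a9 (limma adjusted p = 0.0515), and -3.18 without negative replicate 4 (limma adjusted p = 7.62e-06). S100a8 in tamoxifen mice, given as a description, was -2.03 in high minus negative and -2.16 in low minus negative. In control mice, where both genes averaged under the guide in every population, S100a8 differences lay between -0.15 and -0.06 and S100a9 differences between -0.66 and 0.42, each smaller than its SE (0.73 for S100a8 and 0.69 for S100a9).

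Since neutrophils are the best known source of calprotectin, their genes were read on the same arrays. Of a neutrophil and granule list, 16 genes were measured. Its mean log2 level was 3.80, 4.03, 4.01 and 3.66 on the tamoxifen negative arrays and 3.55, 3.53 and 3.46 on the control negative arrays. The list mean was thus slightly higher on all 4 tamoxifen arrays, and lowest among them on replicate 4. By the fit's threshold 1 of 16 was higher and 0 were lower in tamoxifen negative cells, where 1.62% and 0.703% of all genes were. Of the 16 genes, Ly6g, Mpo, Camp, Csf3r, Fpr2 and Stfa2l1 were under the guide on all 21 arrays. The others exceeded it somewhere: Prtn3 on 21 arrays, Cd177 on 20, Cxcr2 on 14, Mmp9 on 10, Elane on 8, Ltf on 6, Itgam, Retnlg and Mmp8 on 2 each and Ngp on 1. Apart from Cd177, the highest values were 6.43 for Ltf and 5.64 for Prtn3. Prtn3, a granule protease, had 4.87, 5.07, 4.25 and 5.08 on the tamoxifen negative arrays and 4.98, 4.94 and 4.67 on the control negative arrays, which overlapped. Retnlg, which encodes a resistin-like protein of myeloid cells, had log2 levels of 3.62, 4.80, 5.29 and 3.21 on the tamoxifen negative arrays and 3.97, 3.58 and 3.09 on the control negative arrays. Mmp8, neutrophil collagenase, had 4.57, 3.94, 4.72 and 3.53 on the tamoxifen negative arrays and 3.17, 3.24 and 3.00 on the control negative arrays. Retnlg and Mmp8 each passed the guide on 2 arrays of the series, both of them tamoxifen negative arrays on which S100a8 and S100a9 were high. Cd177, a neutrophil surface protein, had 5.90, 6.47, 6.64 and 5.44 on the tamoxifen negative arrays and 4.04, 4.32 and 5.06 on the control negative arrays, but it averaged 8.64 in tamoxifen high and 9.44 in control high cells, where S100a8 and S100a9 averaged under the guide. A macrophage and leukocyte list (14 genes measured) had mean log2 levels of 4.19, 4.63, 5.39 and 5.07 on the tamoxifen negative arrays and 4.72, 4.32 and 4.58 on the control negative arrays, with replicate 4 among the higher. The endocrine cell list (10 genes) had 9.85, 9.95, 9.25 and 8.36 on the tamoxifen negative arrays, where replicate 4 was lowest. It had 7.30, 7.53 and 8.29 on the control negative arrays. Of its genes 2 of 10 were higher in tamoxifen negative cells by the fit's threshold, where 1.62% of all genes were. The part of these lists in the S100a8 and S100a9 levels was not tested.

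**Figure D2:**
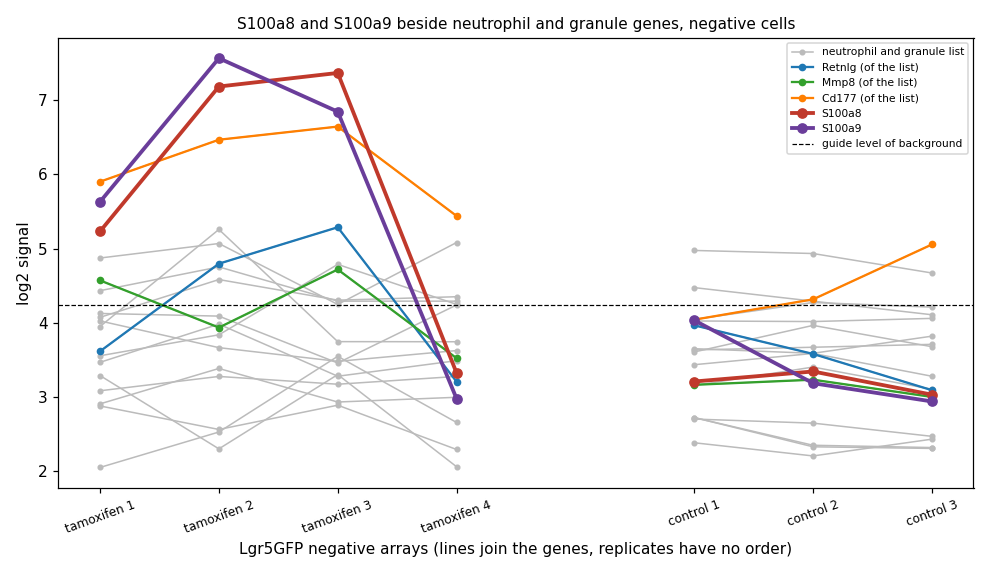
Log2 signal (vertical axis) of S100a8, S100a9 and the 16 measured neutrophil and granule genes on the 4 tamoxifen and 3 control arrays of negative cells. Lines join the values of 1 gene and carry no order. S100a8 and S100a9 move together and drop to 3.33 and 2.98 on tamoxifen replicate 4, while most of the list stays near or under the dashed guide level of 4.25.

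S100a11 (calgizzarin), a partner of annexin A1 that takes part in membrane repair, was bright on every array. Its log2 levels in high cells were 12.15, 12.28, 12.29 and 11.53 on the tamoxifen arrays and 11.20, 10.98 and 10.92 on the control arrays. In low cells they were 12.36, 12.70, 11.90 and 12.09 on the tamoxifen arrays and 10.63, 10.34 and 10.92 on the control arrays. In negative cells they were 12.46, 11.86, 12.26 and 11.64 on the tamoxifen arrays and 11.30, 10.96 and 11.01 on the control arrays. No tamoxifen array overlapped the control arrays in any population. The difference was 1.03 ± 0.23 (SE) in high, 1.64 ± 0.23 in low and 0.96 ± 0.23 in negative cells, or 2.04-fold, 3.11-fold and 1.95-fold. S100a11 showed no call between populations: high minus negative was 0.01 in tamoxifen mice (limma adjusted p = 0.988) and -0.06 in control mice (limma adjusted p = 0.945).

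S100a4, which binds nonmuscle myosin and is widely used as a fibroblast and motile cell marker, had log2 levels in low cells of 6.24, 6.16, 6.02 and 5.91 on the tamoxifen arrays and 4.69, 4.87 and 5.08 on the control arrays, which did not overlap. In high cells it had 5.31, 4.96, 6.29 and 5.03 on the tamoxifen arrays and 4.73, 3.95 and 5.03 on the control arrays. In negative cells it had 6.56, 6.25, 6.86 and 6.53 on the tamoxifen arrays and 6.24, 5.15 and 5.92 on the control arrays. High-cell groups overlapped, and negative-cell groups stood apart by a narrow margin. The differences were 1.20 ± 0.30 in low, 0.83 ± 0.30 in high and 0.78 ± 0.30 in negative cells, or 2.30-fold, 1.78-fold and 1.72-fold. A fibroblast and smooth muscle list (12 genes) had mean log2 levels between 3.92 and 4.52 on all tamoxifen arrays and between 4.26 and 4.43 on all control arrays, close to the guide.

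S100a4 was lower in high than in negative cells under either treatment. In tamoxifen mice the means were 5.40 ± 0.61 in high and 6.55 ± 0.25 in negative cells (SD, n = 4 each). The difference was -1.15 ± 0.28 (SE, limma adjusted p = 0.00878), and the groups overlapped. In control mice they were 4.57 ± 0.56 in high and 5.77 ± 0.56 in negative cells (SD, n = 3 each), a difference of -1.20 ± 0.32 (SE, limma adjusted p = 0.0144). The control call was lost without control high replicate 2 (-0.89, limma adjusted p = 0.106), negative replicate 1 (-0.97, 0.0971) or negative replicate 3 (-1.12, 0.0643). High minus low in tamoxifen mice was -0.68 ± 0.28 (limma adjusted p = 0.207), and -0.98 without tamoxifen high replicate 3 (limma adjusted p = 0.0410).

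S100a10, the partner of annexin A2 in a membrane tether and the member of the family known not to bind calcium, varied most within groups. Its log2 levels in negative cells were 8.55, 8.56, 8.90 and 7.36 on the tamoxifen arrays and 6.09, 6.35 and 7.59 on the control arrays. In high cells they were 9.11, 4.55, 6.77 and 6.21 on the tamoxifen arrays and 3.99, 5.88 and 6.60 on the control arrays. In low cells they were 6.84, 7.54, 6.31 and 8.55 on the tamoxifen arrays and 5.08, 5.29 and 7.49 on the control arrays. Groups overlapped in all populations, and the differences of 1.66, 1.17 and 1.36 in negative, high and low cells each carried an SE of 0.83. In high cells the difference was 0.35 without tamoxifen high replicate 1 and 1.87 without tamoxifen high replicate 2. On the tamoxifen high arrays, in order, the tuft list mean was 7.53, 9.09, 9.97 and 10.15. The endocrine list mean was 7.51, 5.27, 5.93 and 4.75. Among those arrays S100a6, S100a8, S100a10, S100a14 and S100a16 were highest on replicate 1, and S100a1, S100a4, S100a9, S100a11 and S100a13 were not. The part of cell mix in this was not tested. High minus negative in tamoxifen mice was -1.68 ± 0.76 (limma adjusted p = 0.186), and -2.50 without tamoxifen high replicate 1 (limma adjusted p = 0.0197).

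S100a14, an epithelial member, had log2 levels in negative cells of 5.34, 5.80, 7.15 and 6.27 on the tamoxifen arrays and 4.72, 4.94 and 4.86 on the control arrays, with no overlap. In low cells they were 5.56, 4.84, 4.96 and 6.18 on the tamoxifen arrays and 3.83, 4.25 and 4.50 on the control arrays, again apart. In high cells they were 5.58, 5.11, 4.08 and 4.94 on the tamoxifen arrays and 4.31, 4.21 and 4.52 on the control arrays, which overlapped. The differences were 1.30 ± 0.37, 1.19 ± 0.37 and 0.58 ± 0.37 in negative, low and high cells. Control low cells averaged under the guide, so the low-cell fold is given as at least 2.20. In control mice S100a14 averaged 4.35 in high and 4.84 in negative cells, with no overlap. That difference of -0.50 ± 0.40 was not called (limma adjusted p = 0.558), but was in a fit of only those groups (limma adjusted p = 0.0496). Within tamoxifen mice S100a14 was lower in high than in negative cells (-1.21 ± 0.34, limma adjusted p = 0.0263), with overlap. That call was lost without tamoxifen high replicate 3 (-0.93, limma adjusted p = 0.101), negative replicate 3 (-0.88, 0.122) or negative replicate 4 (-1.17, 0.0605), under quantile normalization between arrays (-1.05, 0.0503) and in a fit of only those groups (0.137).

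S100a16, a widely expressed member, covered the narrowest range, with group means within 0.57 of each other. Its tamoxifen differences were 0.46 ± 0.17 in low, 0.43 ± 0.17 in negative and 0.24 ± 0.17 in high cells. In low cells its levels were 5.26, 5.36, 5.22 and 5.35 on the tamoxifen arrays and 4.86, 4.88 and 4.79 on the control arrays, which stood apart although the step was small. Negative-cell groups also stood apart, and high-cell groups overlapped. S100a16 passed the test in none of the population comparisons (lowest limma adjusted p = 0.278, high against negative in tamoxifen mice).

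S100a1 and S100a13 ran in the opposite direction between populations. S100a1 is best known from heart and muscle, where it tunes calcium release and uptake, and S100a13 takes part in the export of a fibroblast growth factor. In tamoxifen mice S100a1 had log2 levels of 9.24, 8.73, 9.58 and 9.26 in high, 8.32, 8.86, 8.18 and 8.74 in low and 8.33, 8.79, 8.82 and 8.29 in negative cells. High cells were higher than negative cells by 0.65 ± 0.19 (limma adjusted p = 0.0347), with overlap. That call was lost without tamoxifen high replicate 1 (limma adjusted p = 0.0586), high replicate 3 (0.117), high replicate 4 (0.0680), negative replicate 1 (0.0925) or negative replicate 4 (0.106). In control mice its log2 levels were 9.29, 9.41 and 9.43 in high, 8.47, 8.83 and 8.83 in low and 8.21, 7.78 and 8.07 in negative cells, with no overlap between any of the groups. There high cells were 2.56-fold higher than negative cells (1.36 ± 0.22, limma adjusted p = 0.000279), and this call held when any 1 of the arrays was left out. Low cells lay between, with differences of 0.69 ± 0.22 from negative (limma adjusted p = 0.0809) and 0.67 ± 0.22 for high minus low (limma adjusted p = 0.170). The S100a1 tamoxifen difference was -0.17 in high, -0.18 in low and 0.54 in negative cells (SE 0.21 each), the only member with a value below 0.

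In tamoxifen mice S100a13 had log2 levels of 8.88, 8.12, 9.07 and 8.51 in high, 8.26, 8.04, 7.50 and 7.89 in low and 7.69, 8.10, 8.18 and 7.60 in negative cells. High cells were higher than negative cells (0.75 ± 0.23, limma adjusted p = 0.0383), with overlap. The call was lost without tamoxifen high replicate 1 (limma adjusted p = 0.0850), high replicate 3 (0.124), negative replicate 1 (0.0916) or negative replicate 4 (0.110). In control mice its log2 levels were 8.02, 8.60 and 8.24 in high, 7.07, 7.14 and 7.94 in low and 7.24, 7.24 and 7.43 in negative cells. High cells were again higher than negative cells, by 1.98-fold (0.98 ± 0.26, limma adjusted p = 0.0154), a call that was lost without control high replicate 2 (limma adjusted p = 0.0865), negative replicate 1 (0.0566) or negative replicate 2 (0.0547). High minus low was 0.90 ± 0.26 (limma adjusted p = 0.101), and 1.18 without control low replicate 3 (limma adjusted p = 0.0374). Its tamoxifen differences were 0.36, 0.54 and 0.59 in high, low and negative cells (SE 0.25 each).

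**Figure D3:**
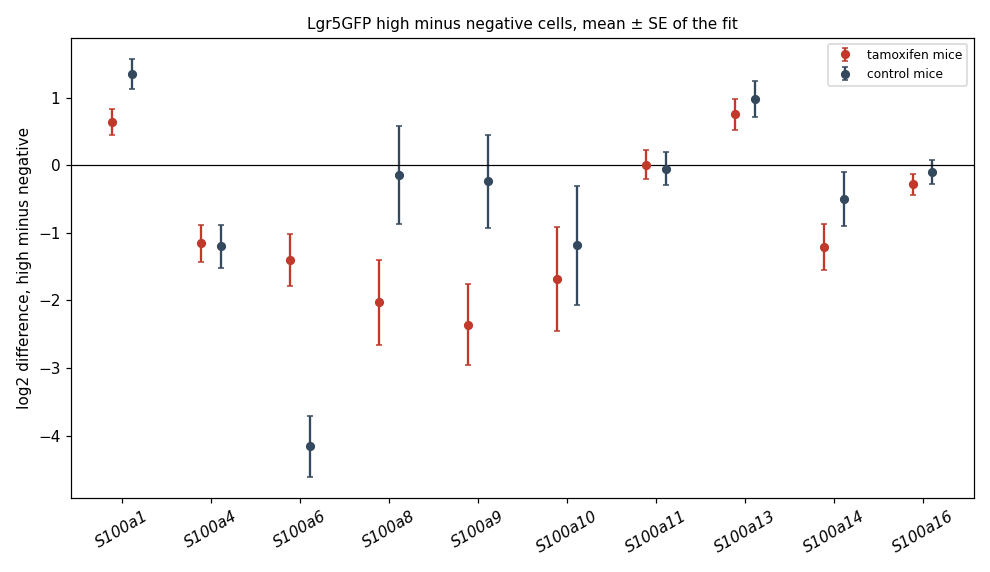
Log2 difference between high and negative cells (vertical axis, mean ± SE of the fit) for each S100 gene, in tamoxifen mice (red) and control mice (dark). S100a1 and S100a13 lie above 0 in both, S100a4 and S100a6 below 0 in both, and S100a6 is at -1.40 in tamoxifen mice and at -4.16 in control mice.

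Counted over the family, population differences ran both ways. In tamoxifen mice the 8 members other than S100a6 and S100a8 were tested. High against negative called 5 of 8, with S100a1 and S100a13 higher and S100a4, S100a9 and S100a14 lower. Over all genes 10.3% were called (3.33% higher and 6.97% lower). The high and negative groups of each called member overlapped, and the S100a9 call is not independent of the choice of S100a8. In a fit of those groups alone 0 of 8 were called, with limma adjusted p = 0.0504 for S100a4, 0.144 for S100a1, 0.115 for S100a13, 0.140 for S100a9 and 0.137 for S100a14, and with array weights the S100a1 (0.135) and S100a13 (0.125) calls were lost. Low against negative called 0 of 8 by limma (2.24% of all genes), with 2 of 8 at an unadjusted p under 0.05, where 12.5% of all genes were. High against low called 0 of 8 by limma (3.22% of all genes), with 4 of 8 at an unadjusted p under 0.05, where 15.9% of all genes were. Without tamoxifen high replicate 2, high against low called S100a1 (0.84, limma adjusted p = 0.0162) and S100a13 (0.90, 0.0323), and without tamoxifen low replicate 2 it called S100a1 (0.79, 0.0473). In control mice high against negative called 3 of the same 8 members (S100a1 and S100a13 higher, S100a4 lower), where 12.3% of all genes were called (4.64% higher and 7.66% lower), and the median member difference was -0.17 against 0.04 over all genes. Low against negative called 0 of 8 by limma (5.27% of all genes), with 2 of 8 at an unadjusted p under 0.05, where 15.4% of all genes were. High against low called 0 of 8 by limma (1.34% of all genes), with 2 of 8 at an unadjusted p under 0.05, where 10.5% of all genes were.

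For the comparison that chose S100a6 and S100a8, counts are given without inference. Tamoxifen against control values passed the fit's threshold for 2 of 10 members in high cells (S100a6 and S100a11, where 1.7% of all genes did so in that direction), 3 of 10 in low cells (S100a4, S100a6 and S100a11, where 5.35% did) and 2 of 10 in negative cells (S100a8 and S100a11, where 1.62% did). In negative cells S100a6 did not pass although its groups did not overlap, whereas S100a8 passed with overlap. Leaving out 1 array gave counts of 1 to 2 in high, 2 to 4 in low and 0 to 3 in negative cells. The high-cell count was 1 without tamoxifen high replicate 2, control high replicate 2 or control high replicate 3. The negative-cell count was 0 without tamoxifen negative replicate 3 or any of the 3 control negative arrays, and 1 without tamoxifen negative replicate 1 or 2. Tamoxifen arrays all lay above the control arrays for 2 of 10 members in high cells (5.78% of all genes), 6 of 10 in low cells (12.1%) and 7 of 10 in negative cells (7.89%). The median member difference was 0.64, 0.98 and 1.13 in high, low and negative cells, where the median over all genes was 0.00, 0.01 and -0.00.

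**Figure D4:**
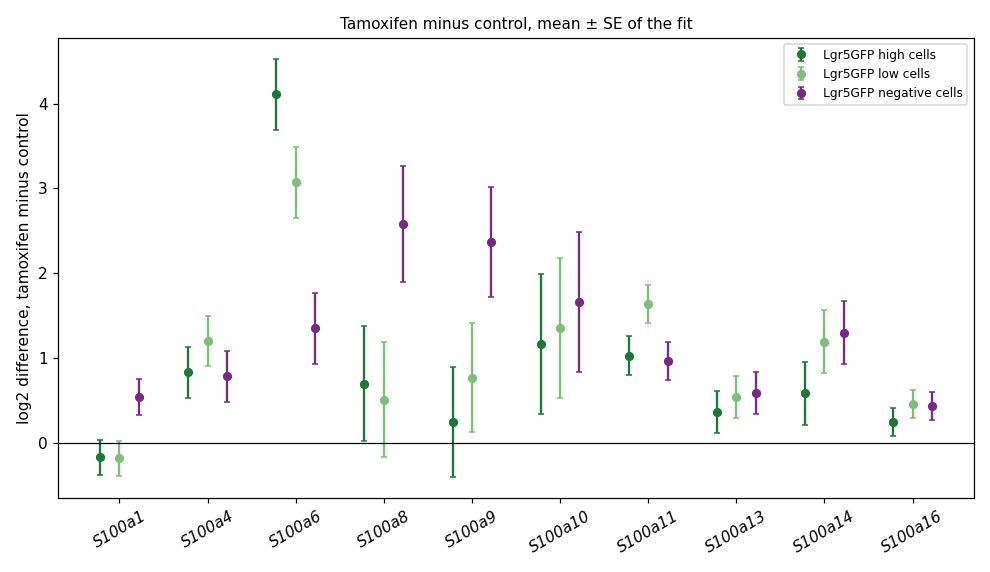
Log2 difference between tamoxifen and control cells (vertical axis, mean ± SE of the fit) for each S100 gene, in high, low and negative cells. S100a6 differs by 4.11 in high and 1.35 in negative cells, while S100a8 and S100a9 are largest in negative cells (2.58 and 2.37).

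The members varied together to unequal degrees over the 21 arrays, which share their group differences, so Pearson r is given as a description. S100a8 and S100a9 had r = 0.90, S100a4 and S100a6 0.86, and S100a1 and S100a13 0.78, whereas S100a1 and S100a6 had -0.46. Predicted genes (Gm, LOC and Rik names) were left out of the search for similar genes. Among the other genes above the guide in some group, those most like S100a6 were Dock1 (r = 0.94), Dmbt1 (0.93) and Rsl1d1 (0.93). Those most like S100a8 were Dcx (0.91), Wee2 (0.91) and Bhlhb9 (0.90), and those most like S100a9 were Tff3 (0.95), Cdh2 (0.91) and Dynlrb2 (0.91). S100a11 was most like Arrdc1 (0.95), Myh9 (0.95) and Krtcap3 (0.94), and S100a4 most like Ehd4 (0.92), Akip1 (0.91) and Cpt2 (0.91). For S100a10 the nearest were Reg1 (0.87), Gch1 (0.86) and Bcam (0.85), and for S100a14 Gch1 (0.86), Msln (0.84) and Mall (0.83). S100a1 was nearest to Zfhx2 (0.90), Tmem176b (0.90) and Tmem176a (0.89), S100a13 to Hdac4 (0.83), Ptprg (0.82) and Mettl27 (0.81), and S100a16 to Reep6 (0.87), F3 (0.86) and Atp6v0d2 (0.86).

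All 10 genes lie on chromosome 3, in an interval from S100a1 to S100a10 that holds 101 genes in RefSeq GRCm38.p6, of which 64 were measured. The interval is the epidermal differentiation complex, shared with late envelope, small proline-rich and filaggrin-type genes. Of the 54 measured genes there that are not members, 16 had a group mean above the guide. Sprr1a, a small proline-rich envelope protein known from injured epithelium, lay in between the members and was higher in tamoxifen cells by 4.72 in high, 5.74 in low and 5.22 in negative cells. Its control high mean was under the guide, so the high-cell fold is at least 26.2. Ivl, another envelope protein, passed the fit's threshold in negative cells, with means of 5.60 on tamoxifen and 4.15 on control arrays, or at least 2.55-fold higher. Sprr1b was lower there, with 3.97 on tamoxifen and 4.88 on control arrays, or at least 1.55-fold. Sprr2b, the brightest Sprr2 gene, differed by 0.37, 0.09 and -0.63 in high, low and negative cells and passed in none. Sprr2d, Sprr2e and Sprr2f averaged 4.62, 4.62 and 4.56 on tamoxifen negative and 3.51, 3.23 and 3.08 on control negative arrays, near and under the guide, and did not pass there. Sprr2f did pass in low cells, with means of 4.22 on tamoxifen and 2.91 on control arrays, both under the guide. Sprr4 also passed in low cells, with a difference of -0.70. Sprr3 was under the guide in every group. The S100-fused and trichohyalin-like genes of the interval (7 measured, Flg and Hrnr among them) were all under the guide in every group, and 0 of 7 passed the fit's threshold in any comparison, against the shares over all genes given above.

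**Figure D5:**
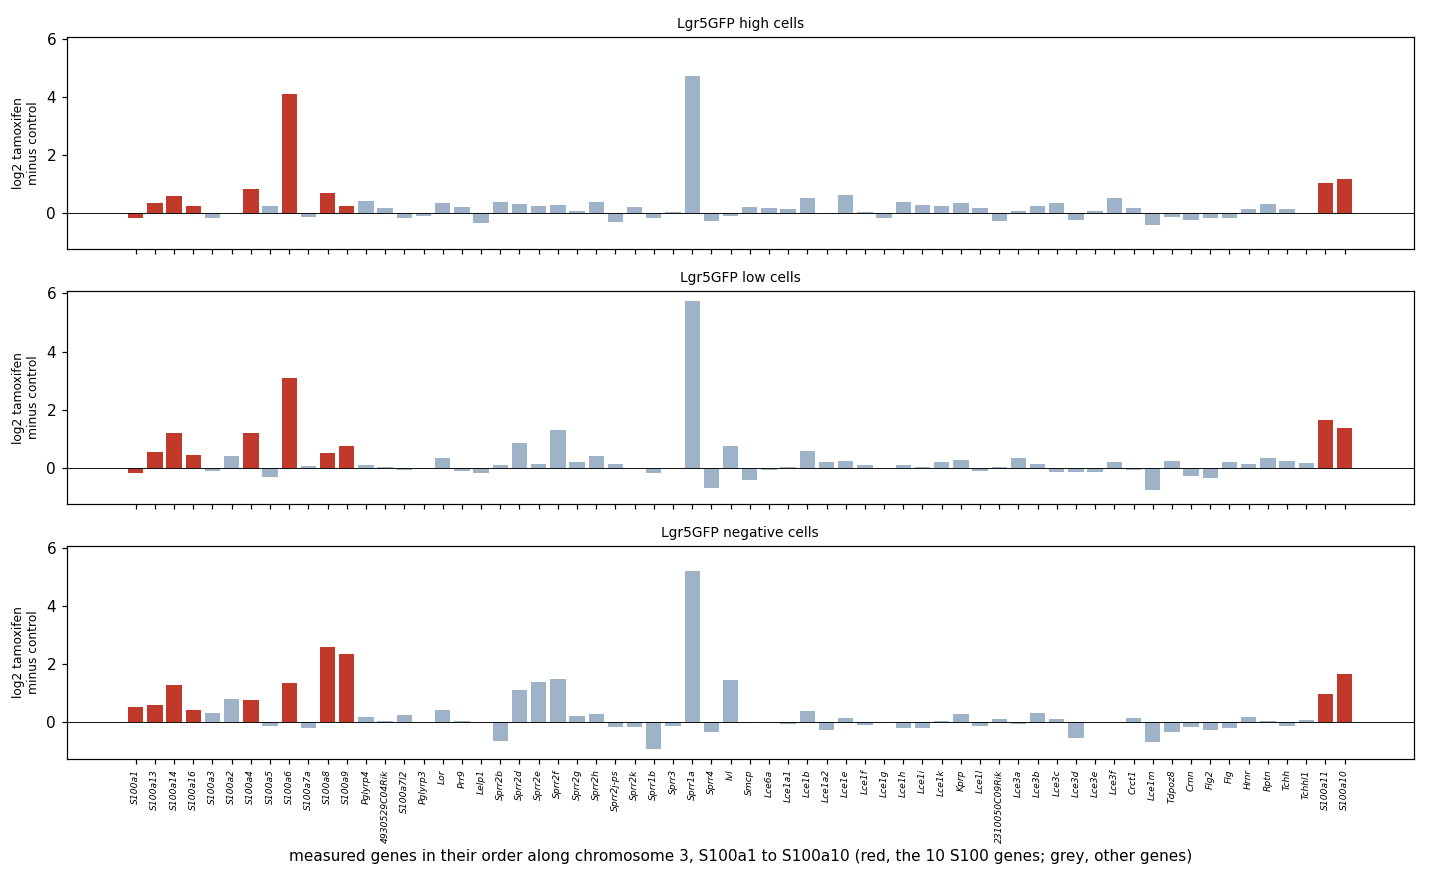
Log2 difference between tamoxifen and control cells (vertical axis) for the measured genes in their order along chromosome 3 from S100a1 to S100a10, in high, low and negative cells (S100 members red, other genes grey). Differences above 1 in high cells were those of S100a6, S100a10, S100a11 and Sprr1a.

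The other 8 S100 genes measured (S100a2, S100a3, S100a5, S100a7a, S100a7l2, S100b, S100g and S100z) were dim, with 4 above the guide in any group. In the tamoxifen comparisons 0 of 8 passed the fit's threshold. Over all genes 1.7%, 5.35% and 1.62% were higher and 1.04%, 2.98% and 0.703% lower in high, low and negative cells. The widest difference was that of S100a2 in negative cells, 5.13 ± 0.50 on tamoxifen and 4.32 ± 0.28 on control arrays (SD), or 0.81 ± 0.23 (SE). Between populations of tamoxifen mice S100b, best known from glia, averaged 4.75 in high, 3.55 in low and 3.44 in negative cells, close to the guide or under it. High cells were higher than negative cells (1.31 ± 0.30, limma adjusted p = 0.00598), without overlap. They were also higher than low cells (1.19 ± 0.30, limma adjusted p = 0.0282), with overlap. The fold over the guide is at least 1.41 in both. S100a2 was lower in high than in negative cells of tamoxifen mice (-0.94 ± 0.22, limma adjusted p = 0.00658), by at least 1.84-fold since its high-cell mean of 4.18 was under the guide. Counted in tamoxifen mice, high against negative called 1 of 8 higher and 1 of 8 lower, where 3.33% and 6.97% of all genes were. High against low called 1 of 8 (3.22% of all genes), and low against negative 0 of 8 (2.24%). In control mice 0 of the 8 were called in any of the 3 population comparisons. Over all genes 12.3% were called in high against negative, 5.27% in low against negative and 1.34% in high against low.

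Of 13 measured binding partners of S100 proteins, all above the guide in some group, 1 of 13 was higher in tamoxifen high cells, 8 of 13 in low cells and 1 of 13 in negative cells by the fit's threshold, where 1.7%, 5.35% and 1.62% of all genes were higher, and 0 were lower. The list median was 0.42, 0.81 and 0.26 in high, low and negative cells, against 0.00, 0.01 and -0.00 over all genes. Anxa2, the annexin that S100a10 and S100a6 bind, averaged 9.98 ± 0.25 on the tamoxifen low arrays and 7.42 ± 0.58 on the control low arrays (SD), a difference of 2.55 ± 0.32 (SE). In negative cells it was higher by 1.78 ± 0.32, and in high cells the difference was 0.68 ± 0.32, with overlap. Ahnak, the giant scaffold held by S100a10 and Anxa2, was higher by 1.39 in high and 2.04 in low cells and differed by 0.71 in negative cells, with overlap (SE 0.35 each). Myh9, the nonmuscle myosin that S100a4 binds, was higher by 1.51 in low cells, and differed by 0.85 in high and 0.61 in negative cells, with overlap (SE 0.28 each). Between populations, Ahnak was lower in high cells than in negative cells in tamoxifen mice (-1.70 ± 0.32, limma adjusted p = 0.00146) and in control mice (-2.38 ± 0.37, limma adjusted p = 0.000177).

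Of 12 measured receptors and adaptors of extracellular S100 proteins, 3 were higher in tamoxifen high cells, 4 higher and 1 lower in low cells, and 1 higher in negative cells by the fit's threshold. Over all genes 1.7% were higher and 1.04% lower in high cells, 5.35% higher and 2.98% lower in low cells, and 1.62% higher and 0.703% lower in negative cells. Cd14, the coreceptor of Tlr4, led in all populations. Its log2 levels in low cells were 8.82, 8.52, 8.20 and 7.98 on the tamoxifen arrays and 4.42, 4.60 and 5.14 on the control arrays, a difference of 3.66 ± 0.36. In high and negative cells it was higher by 2.36 and 2.68, without overlap. Tlr4 itself, the receptor of calprotectin, was higher by 1.15 ± 0.28 in tamoxifen high cells, with levels of 6.65, 5.70, 5.23 and 5.35 on the tamoxifen arrays and 4.48, 4.78 and 4.47 on the control arrays. In low cells it was higher by 1.47 ± 0.28, with means of 6.15 on tamoxifen and 4.68 on control arrays, and in negative cells the means were 6.49 and 6.40 in the same order, with overlap. In control mice Tlr4 was lower in high than in negative cells (-1.82 ± 0.30, limma adjusted p = 0.000296). Ly96, which joins Tlr4 to its ligands, was higher by 2.44 ± 0.37 in low cells, and Cd36, a scavenger receptor, was lower in low cells, with a difference of -1.92 ± 0.42.

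Of 16 measured EF-hand calcium proteins outside the S100 family, 0 were higher and 1 was lower in tamoxifen high cells, 2 were higher and 2 lower in low cells, and 0 were either in negative cells by the fit's threshold, to be read against the shares of all genes just given. Calml4, a calmodulin-like protein of brush borders, differed by -1.71 in high and -1.99 in low cells (SE 0.45 each). The list median was -0.15, 0.03 and -0.05 in high, low and negative cells, near the medians over all genes.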

How the data were processed

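RNA of 21 sorted cell samples was measured on microarrays, and the deposited table holds log2 signal per probe set, made by the authors. The tools named per the submitters' processing notes, without roles, are RMA, oligo, limma 3.26.8 and R 3.2.3, and a genome build is not given in the sources used here. Of 41345 probe sets, 23521 name exactly 1 gene in the platform table, and the brightest per gene gave 22180 genes. Titles gave group and replicate. The control negative arrays carry the word low in 1 label field, and title and cell population field, which say negative, were followed.

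Group means were fitted with limma 3.58.1 in R 4.3.3 (lmFit, eBayes, 15 residual and 5.27 prior degrees of freedom), and p-values were two-sided and adjusted by Benjamini-Hochberg over all genes, with calls under 0.05. SE come from this fit and SD from a group's own arrays. The limma fit and call were tested on simulated data, in the contrast of high against negative cells of control mice only. The number of arrays limits the precision.

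The members and all gene lists were chosen with earlier results of these data known. Named were all 10 members, every other S100 gene, and up to 4 genes per list by smallest adjusted p or widest tamoxifen difference. Also named were the 3 genes most correlated with each member above the guide, leaving out predicted genes (Gm, LOC and Rik names). Members are tested between populations, except S100a6 and S100a8, which were chosen on values of tamoxifen and control arrays; the plan had tested both in control mice. Alternatives were cyclic loess, quantile normalization, the mean of probe sets, trend and robust eBayes, array weights, only the groups compared, a 25 percent filter on dim genes, a 2-fold minimum, blocks on the numbers in the titles, and leaving out each array. Promoter sequences are RefSeq's, GRCm38.p6.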

Additional observations from a re-analysis of the deposited data

How the results depend on the processing

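No called member difference changed sign under the alternatives run. The small S100a11 difference between high and negative cells of control mice, not called, was above 0 under cyclic loess and quantile normalization. Several other differences that were not called changed sign when 1 array was left out. Among them, S100a10 high minus low in control mice was -0.46, and 0.31 without control low replicate 3. For tamoxifen against control, the 2 members past the threshold in high cells became 1 with only the groups compared, and the 2 in negative cells became 1 under quantile normalization, trend and robust eBayes or a 2-fold minimum, and 7 with array weights. In tamoxifen mice, high against negative called 3 of 8 with array weights, a 2-fold minimum or a replicate block by title number and 0 with only the groups compared. Low against negative called 1 with array weights, without the dimmest 25 percent of genes, with the title number as a random block or with a replicate block by Replicate number, and high against low called 2 under cyclic loess and 1 under quantile normalization, without the dimmest 25 percent of genes or with the title number as a random block. In control mice, low against negative called 1 of 8 under cyclic loess, with only the groups compared or with a replicate block by Replicate number, and 2 with array weights, and high against low called 1 with array weights, each against 0 in the reported fit. The cause was not tested. Without 1 array, counts ran from 1 to 2, 2 to 4 and 0 to 3 in tamoxifen high, low and negative cells, from 2 to 5, 0 to 1 and 0 to 2 in tamoxifen mice (high against negative, low against negative, high against low), and from 1 to 3, 0 to 0 and 0 to 1 in control mice in the same order.

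Over all genes, the 606 calls in tamoxifen high cells became 12 with only the groups compared, 335 with a 2-fold minimum and 1128 with a replicate block by Replicate number. Deviations of same-numbered arrays (the number in the titles) correlated at -0.16 to 0.41 in tamoxifen mice (3 of 10 pairs over 0.1), where arrays of different number gave -0.28 to 0.34 (14 of 38 over 0.1). In control mice same-numbered arrays gave 0.09 to 0.32 (8 of 9 over 0.1) and the others -0.27 to 0.03 (0 of 18), so each control array correlated best with its own number, a hint from the data that the labels do not state. The replicate block by title number left the counts of member calls in control mice at 3, 0 and 0. It ended the S100a1 (0.52, limma adjusted p = 0.182) and S100a13 (0.71, 0.0928) calls between high and negative cells of tamoxifen mice. Probe sets near the guide level, such as those of S100a8 and S100a9 outside tamoxifen negative cells, give no reliable order.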
